A study of Rattus norvegicus with 6 samples.

Results

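The genes described here carry the thyroid hormone signal or answer to it: the receptors Thra and Thrb, their partner receptor Rxrg, the deiodinases Dio2 and Dio3, and the response genes Hr, Klf9 and Thrsp. They were taken by symbol from a table of 37991 genes measured in cultured rat cells of the oligodendrocyte lineage, where each of the 8 symbols matched 1 entry. All 8 had enough reads to be tested, among 17797 genes tested in all. The libraries hold total RNA of differentiated oligodendrocytes (replicates 1, 2 and 5) and of oligodendrocyte precursors before differentiation (replicates 1, 2 and 5), all from the strain labelled SD rat, whose age is not given in the sources used here. Precursors grew in Raff medium and were differentiated by changing growth factors. The titles give day 3 for differentiated replicates 1 and 2 and day 0 for precursor replicates 1 and 2, and give replicate 5 in another form. The labels name no hormone, so whether thyroid hormone was in either medium is not known here. They do not say whether replicates were separate cultures or animals. The p-values thus set group differences only against the spread among these samples, and that spread may be technical.

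Thyroid hormone enters cells through membrane transporters, and the outer-ring deiodinase made from Dio2 turns thyroxine into the active hormone triiodothyronine, while the inner-ring deiodinase made from Dio3 destroys both. The receptors sit on DNA with a retinoid X receptor partner, hold target genes down with corepressors when empty, and switch to coactivators when hormone binds. In the oligodendrocyte lineage the hormone is known as a signal for precursors to leave the cell cycle and make myelin, and it is a common additive of media for differentiating these cells.

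Thra, Hr and Thrsp rose in differentiated cells, by 2.75-fold, 3.51-fold and 5.23-fold. Thrb and Klf9 were also higher in each differentiated library than in any precursor library, and Dio2 was lower in each, but these 3 genes did not pass the test. Dio3 and Rxrg had overlapping groups. Thus 3 of 8 genes were called higher and 0 lower (edgeR quasi-likelihood test, adjusted p under 0.05), where 5.65% of all tested genes were called higher, 3.21% lower and 8.86% in either direction. At an unadjusted p under 0.05 edgeR gave 5 higher and 1 lower, against 4110 of all 17797 genes in either direction. DESeq2 called 4 higher and 1 lower after adjustment, against 1459 higher and 1198 lower of the 25386 genes it fitted. That total keeps any gene whose adjusted p it withheld. The groups did not overlap for 6 of 8 genes, 5 of them higher and 1 lower in differentiated cells, and for 30.3% of all genes tested, 16.5% higher and 13.8% lower. The median log2 fold change was 0.94 over the 8 genes and -0.04 over all genes tested. With the replicate number as a block, 5 of the 8 genes were called, 4 higher and 1 lower, against 30.6% of all genes (14.9% higher and 15.7% lower), since Thrb (higher) and Dio2 (lower) were then called too. Without both replicate 1 libraries 5 were called as well, Thra, Hr and Thrsp higher and Dio2 and Dio3 lower, against 16.6% of all genes (8.48% higher and 8.11% lower). No gene of the 8 was called without precursor 2 or without differentiated 5, where the counts over all genes were 663 and 670 in place of 1576.

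The start regions of Thra and Thrsp, which rose, and of Dio2, which was lower in each pair of libraries, are shown as examples of the sequence in which the binding motif of the receptors was searched. They are RefSeq sequences of the assembly GRCr8, from 250 bases before to 50 bases after the start. Capitals mark matches on either strand to the GC box GGGCGG and to the CCAAT box, and no other motif was matched in them.
Thra (chr10:84197891-84198190, plus strand): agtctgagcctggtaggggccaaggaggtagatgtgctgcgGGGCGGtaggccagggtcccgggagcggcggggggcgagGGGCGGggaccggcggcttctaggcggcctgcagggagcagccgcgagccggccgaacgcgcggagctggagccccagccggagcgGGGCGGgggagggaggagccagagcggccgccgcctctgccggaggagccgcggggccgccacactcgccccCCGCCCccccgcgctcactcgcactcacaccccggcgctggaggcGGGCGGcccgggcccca
Thrsp (chr1:161138915-161139214, minus strand): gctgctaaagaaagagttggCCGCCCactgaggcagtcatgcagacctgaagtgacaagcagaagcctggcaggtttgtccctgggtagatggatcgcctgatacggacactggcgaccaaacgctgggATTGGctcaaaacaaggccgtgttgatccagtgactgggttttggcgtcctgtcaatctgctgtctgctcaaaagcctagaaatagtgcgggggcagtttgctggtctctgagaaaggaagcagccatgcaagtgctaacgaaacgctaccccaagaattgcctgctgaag
Dio2 (chr6:115410545-115410844, minus strand): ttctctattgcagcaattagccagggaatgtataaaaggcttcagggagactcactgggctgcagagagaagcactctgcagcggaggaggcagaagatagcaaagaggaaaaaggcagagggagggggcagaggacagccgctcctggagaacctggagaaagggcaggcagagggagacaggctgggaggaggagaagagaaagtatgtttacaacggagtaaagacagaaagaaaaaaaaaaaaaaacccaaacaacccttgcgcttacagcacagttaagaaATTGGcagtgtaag
The reference table gave such a window for 7 of the 8 genes, with 2 for Thra and none for Hr, which was therefore not searched. The hexamer AGGTCA to which thyroid hormone receptors bind was searched on both strands. It was in 0 of these 7 genes' windows and in 16.2% of 33469 windows of all genes. The direct repeat of 2 such hexamers with 4 bases of any kind between them, the spacing that the receptor with its partner prefers, was in 0 of 7 and in 0.00598% of all windows. GC boxes were in the windows of 4 of the 7 genes (33.1% of all windows) and CCAAT boxes in those of 5 (37.5% of all windows). The Thra window shown, the upstream one of 2, held 5 GC boxes and was 79.7% G or C, against a median of 51.7% over all windows, whereas the Thrsp window was 53.7% and the Dio2 window 49.0%. A missing match says only that these letters are not in these windows.

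Libraries held between 55522101 and 79898629 reads, and levels are given in CPM (reads of a gene scaled to library size, with edgeR's TMM factors). In differentiated 5, the smallest library, 3 reads make 0.0546 CPM. The 7 oligodendrocyte markers, such as Mbp and Mog, were all called higher in differentiated cells, with a summed level of 18168 to 21427 CPM against 1393 to 2170 CPM in precursors. None of the 4 precursor markers measured, such as Pdgfra, was called by edgeR without the block (1 higher at an unadjusted p under 0.05 and 1 higher by DESeq2), and with the block Gpr17 and Cspg4 were called higher and Ptprz1 lower. Astrocyte markers were abundant, at 7117 to 7410 CPM in differentiated and 3910 to 5608 CPM in precursor libraries, with 5 of 9 tested called higher, and 7 with the block. Neuronal markers reached 124 to 158 CPM in differentiated and 113 to 241 CPM in precursor libraries. Most of this was Tubb3, at 132, 90.9 and 111 CPM in differentiated 1, 2 and 5 and 84, 188 and 191 CPM in precursor 1, 2 and 5. Of the 7 tested, Stmn2 alone was called, lower (edgeR adjusted p = 0.0268), and 2 were called lower with the block. Both replicate 1 libraries stood above the others in fibroblast and pericyte markers (59.9 CPM differentiated and 79.9 CPM precursor, the others 20.4 to 32.5 CPM), in microglial markers (494 CPM differentiated and 660 CPM precursor, the others 274 to 283 CPM) and in endothelial markers (28.3 CPM differentiated and 38.5 CPM precursor, the others 11.3 to 15.7 CPM). Of these lists Rgs5 (pericytes) and Cldn5 (endothelium) had 0 reads in all 6 libraries. Pdgfrb was at 9.25 to 12.4 CPM in differentiated and 4.33 to 6.29 CPM in precursor libraries and was called higher (edgeR adjusted p = 0.0265). Among differentiated libraries Pdgfrb was highest in replicate 5, not in replicate 1. Flt1, at 12.9 to 26.5 CPM in differentiated and 10.2 to 36.0 CPM in precursor libraries, made up most of the endothelial sum. Pecam1, Cdh5 and Tek reached at most 1.24 CPM. Cx3cr1, alone among the microglial markers, was lowest in precursor 1 (4.89 CPM, against 8.23 and 9.24 CPM in precursors 2 and 5). The part of any of these cells in the values that follow was not tested. Each library is a whole culture, so fewer cells of a type and less RNA per cell cannot be told apart.

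Thra (81812) encodes the alpha receptor, the main thyroid hormone receptor of brain. It was at 106, 162 and 181 CPM in differentiated replicates 1, 2 and 5, against 39.0, 58.2 and 65.6 CPM in precursor replicates 1, 2 and 5. Replicate 1 was lowest in both groups, and the lowest differentiated library lay well above the highest precursor library. This gave a log2 fold change of 1.46 (SE 0.26, edgeR adjusted p = 0.0155). Within same-numbered pairs Thra was 2.71-fold, 2.78-fold and 2.75-fold higher, so that the 3 pairs gave nearly the same value although the levels differed. With the replicate block the SE was 0.06 and the edgeR adjusted p 6.1e-05. Without differentiated 2, differentiated 5 or precursor 2 the edgeR adjusted p was 0.0688, 0.0652 and 0.0702, and the call was lost.

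The entry for Thra joins the transcripts of the hormone-binding receptor and of a splice form that does not bind hormone, which cannot be told apart here. On GRCr8 the gene overlaps Med24 and, on the opposite strand, Nr1d1, and the strand setting of the counting is not given in the sources used here. Nr1d1 (252917), a clock repressor, had 62, 165 and 166 reads in differentiated and 70, 79 and 107 reads in precursor libraries, where Thra had 7603, 10439 and 9932 against 2488, 4162 and 4725 reads. Nr1d1 was not called, at a log2 fold change of 0.80 (SE 0.48) and an edgeR adjusted p of 0.382. Med24 (619436), a Mediator subunit, was at 48.4 ± 4.50 CPM in differentiated and 42.5 ± 7.67 CPM in precursor cells (SD, n = 3 each) and was not called either, at a log2 fold change of 0.19 (SE 0.16) and an edgeR adjusted p of 0.556. The genes whose profile over the 6 libraries lay closest to Thra were Apbb1 (29722), Fndc5 (260327) and Ptprd (313278). Their root mean square differences from its centred log2 CPM were 0.0772, 0.119 and 0.125, among 15434 other protein-coding genes.

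**Figure D1:**
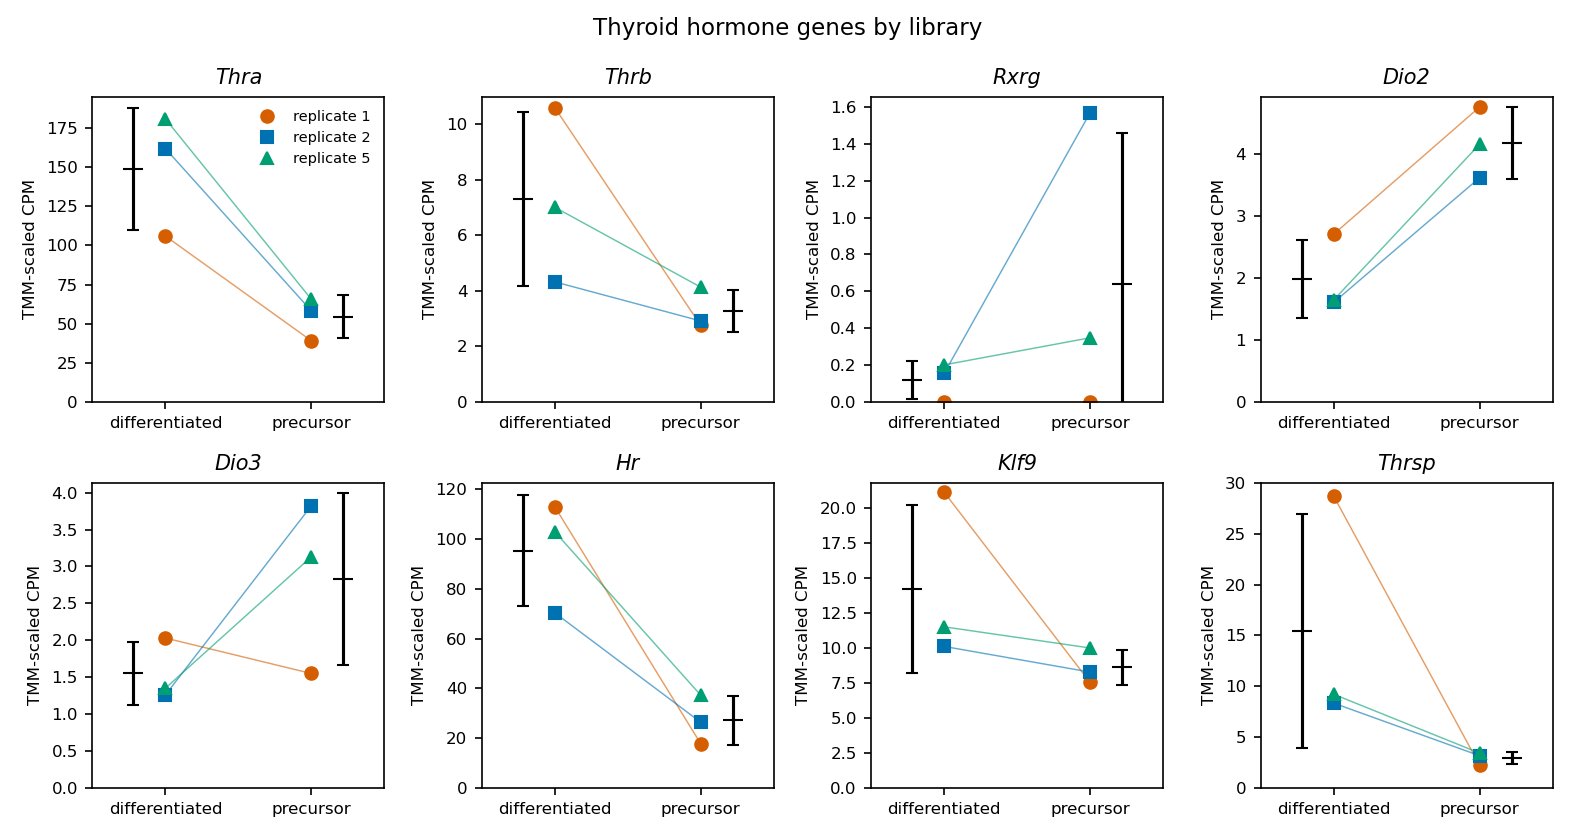
Level of each gene in TMM-scaled CPM (vertical axes from 0) in differentiated and precursor libraries. Lines join same-numbered replicates, and black bars give the mean and SD of 3 libraries (cut at 0 for Rxrg). Thra, Thrb, Hr, Klf9 and Thrsp lie higher in all differentiated libraries and Dio2 lower, while the groups of Dio3 and Rxrg overlap.

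Thrb (24831) encodes the beta receptor, which in brain is known to appear later in development than the alpha receptor. It was at 10.6, 4.32 and 7.01 CPM in differentiated replicates 1, 2 and 5, against 2.75, 2.91 and 4.13 CPM in precursor replicates 1, 2 and 5. Differentiated 1 stood highest, and differentiated 2 lay just above precursor 5. Its log2 fold change of 1.16 (SE 0.36) missed the threshold (edgeR adjusted p = 0.101), and it passed with the replicate block (log2 fold change 1.09, adjusted p = 0.0324). Without both replicate 1 libraries it was 0.69 with an edgeR adjusted p of 0.202.

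Per length, Thra far exceeded Thrb. In TPM (the authors' level per library that allows for gene length) Thra was 28.3, 106 and 70.5 times Thrb in differentiated replicates 1, 2 and 5, and 40.4, 56.8 and 45.1 times in precursor replicates 1, 2 and 5. The ratio was both highest and lowest in differentiated libraries. The log2 ratio of Thrb to Thra was -5.90 ± 0.978 in differentiated and -5.55 ± 0.251 in precursor cells (SD, n = 3 each), a difference of -0.344 (exact two-sided permutation test over samples, p = 0.6, where 0.1 is the smallest p possible). Without differentiated 2 that difference was 0.072, so its direction rests on that library.

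Rxrg (83574) encodes the gamma member of the retinoid X receptors, known as a regulator of oligodendrocyte differentiation. It had 0, 10 and 11 reads in differentiated replicates 1, 2 and 5, against 0, 112 and 25 reads in precursor replicates 1, 2 and 5. In CPM these were 0, 0.155 and 0.200 in differentiated cells and 0, 1.57 and 0.347 in precursors. Precursor 2 held most of the reads, and both replicate 1 libraries had none, which allows up to 0.0418 CPM in differentiated 1 and 0.0471 CPM in precursor 1 (3 counts, counting error only). Rxrg had a log2 fold change of -2.43 with an SE of 1.74 (edgeR adjusted p = 0.466), which was -0.56 without precursor 2. At this depth and spread no difference was detectable.

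The other retinoid X receptors were more abundant. Rxrb (361801) was at 13.7 TPM in differentiated and 13.4 TPM in precursor cells, and Rxra (25271) at 6.42 and 8.89 TPM, while Rxrg averaged 0.0537 ± 0.0479 and 0.374 ± 0.458 TPM (SD, n = 3 each). Neither Rxrb nor Rxra was called: Rxrb had a log2 fold change of 0.27 (SE 0.15) and an edgeR adjusted p of 0.358, and Rxra one of -0.21 (SE 0.21) and 0.619. Rxrg made up 0%, 0.351% and 0.403% of the TPM of the 3 genes in differentiated replicates 1, 2 and 5, against 0%, 3.43% and 0.985% in precursor replicates 1, 2 and 5. The mean shares, 0.251% and 1.47%, differed by -1.22 percentage points (exact two-sided permutation test over samples, p = 0.4, smallest possible 0.1). Without precursor 2 the difference was -0.241 percentage points.

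Dio2 (65162), the activating deiodinase, was at 2.70, 1.60 and 1.64 CPM in differentiated replicates 1, 2 and 5, against 4.75, 3.61 and 4.15 CPM in precursor replicates 1, 2 and 5. Every differentiated library lay below every precursor library, at 194, 103 and 90 reads against 303, 258 and 299. Dio2 was 2.1-fold lower (log2 fold change -1.07, SE 0.30), which missed the threshold (edgeR adjusted p = 0.0748). It passed with the replicate block (log2 fold change -1.11, adjusted p = 0.0106), without both replicate 1 libraries (-1.26, edgeR adjusted p = 0.0244) and with DESeq2 (-1.09, adjusted p = 0.0125). In brain this enzyme is known from astrocytes. Of the 9 astrocyte markers tested, 5 were called higher in differentiated cells, Aldh1l1, Gja1, Aldoc, Fgfr3 and Slc4a4, and 0 lower. Gfap was at 5939 and 4072 CPM in differentiated and precursor cells (edgeR adjusted p = 0.0849, and 0.0138 with the block), and Aqp4, at a log2 fold change of 0.49, was called with the block alone (edgeR adjusted p = 0.161, and 0.00441 with it). Slc1a2 and Sox9 were not called in either fit, at log2 fold changes of -0.30 and -0.05. The summed markers, most of which are Gfap reads, were higher in every differentiated than in any precursor library, and their part in the Dio2 values was not tested.

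Dio3 (29475), the inactivating deiodinase, was at 2.03, 1.26 and 1.35 CPM in differentiated replicates 1, 2 and 5, against 1.55, 3.82 and 3.13 CPM in precursor replicates 1, 2 and 5. The pairs did not move alike: differentiated 1 was 1.31 times precursor 1, while differentiated 2 and 5 were 0.329 and 0.431 times their precursors. Over all libraries the log2 fold change of -0.87 (SE 0.41) missed the threshold (edgeR adjusted p = 0.254). Without both replicate 1 libraries it was -1.41 and passed (edgeR adjusted p = 0.0213). In that fit 16.6% of all tested genes were called, against 8.86% with all libraries. Without precursor 1 alone the edgeR adjusted p of Dio3 was 0.0891, and without differentiated 1 alone it was 0.184. Dio1 (25430), the deiodinase known from liver and kidney, had 22, 0 and 13 reads in differentiated and 8, 0 and 13 reads in precursor replicates 1, 2 and 5. It was at 0.181 ± 0.161 CPM in differentiated and 0.102 ± 0.0926 CPM in precursor cells (SD, n = 3 each), and was not called (edgeR adjusted p = 0.819).

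**Figure D2:**
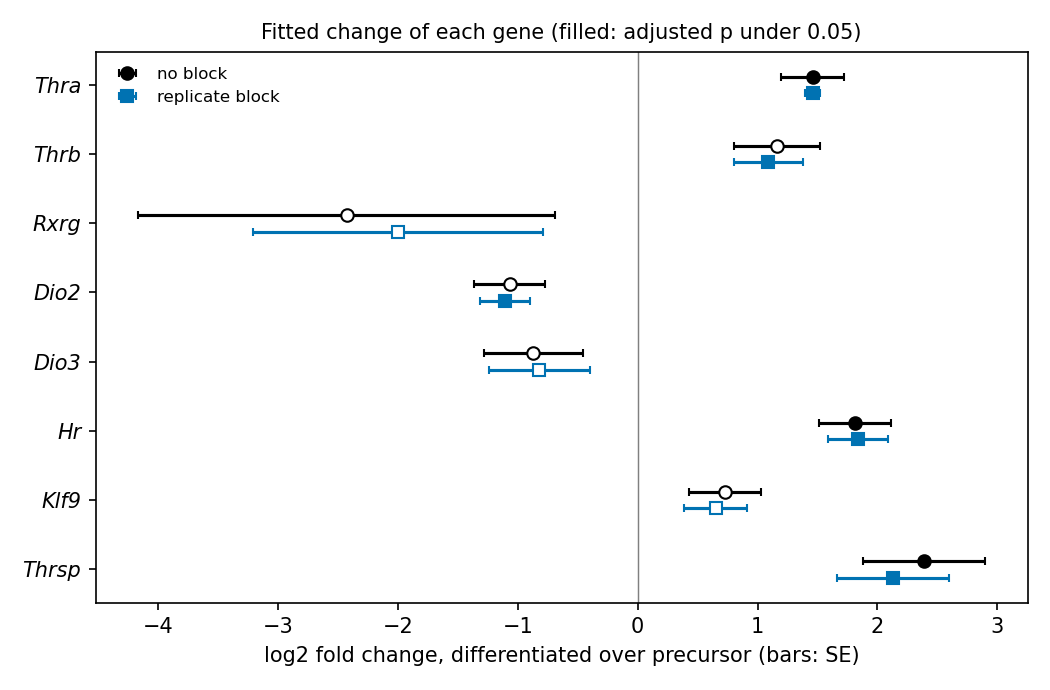
Log2 fold change of each gene, differentiated over precursor, with its SE, fitted by edgeR without a block (black circles) and with the replicate number as a block (blue squares). Filled symbols passed an adjusted p of 0.05: Thra, Hr and Thrsp in both fits, Thrb and Dio2 with the block.

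Hr (60563) encodes hairless, a corepressor of the thyroid hormone receptors and a direct hormone response gene in rat brain. It was at 113, 70.4 and 103 CPM in differentiated replicates 1, 2 and 5, against 17.8, 26.4 and 37.3 CPM in precursor replicates 1, 2 and 5. The groups lay far apart, and replicate 1 was the highest differentiated and the lowest precursor library. Hr had a log2 fold change of 1.81 (SE 0.30, edgeR adjusted p = 0.0113). Hr was 6.35-fold higher in pair 1 and 2.67-fold and 2.75-fold higher in pairs 2 and 5. The call was lost without differentiated 5 (edgeR adjusted p = 0.0516) and without precursor 2 (0.0676). The profiles closest to it were those of Erbb3 (29496), a neuregulin receptor, Mfsd6 (301388) and Nxpe2 (100363350), with root mean square differences of 0.118, 0.183 and 0.185.

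Thrsp (25357) encodes Spot 14, a hormone-responsive protein tied to fatty acid synthesis. It was at 28.7, 8.34 and 9.21 CPM in differentiated replicates 1, 2 and 5, against 2.24, 3.17 and 3.43 CPM in precursor replicates 1, 2 and 5. Differentiated 1 stood far above the other differentiated libraries, which in turn lay above every precursor library. Its log2 fold change was 2.39 (SE 0.51, edgeR adjusted p = 0.0311). Pair 1 gave 12.8-fold, and pairs 2 and 5 gave 2.63-fold and 2.68-fold. Without both replicate 1 libraries the fold was 2.67 (edgeR adjusted p = 0.00535), against 5.23 with them, and the log2 fold change without differentiated 1 alone was 1.58. The call was lost in the fits that left out differentiated 5 or any 1 of the precursor libraries (edgeR adjusted p of 0.0515 to 0.118). Its closest profiles were Hcn2 (114244), an ion channel gene, Tmprss13 (300682) and Angptl2 (171100), at root mean square differences of 0.178, 0.203 and 0.240.

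Klf9 (117560), a transcription factor gene known as an early response gene of the hormone in several tissues, was at 21.1, 10.1 and 11.5 CPM in differentiated replicates 1, 2 and 5, against 7.53, 8.27 and 9.99 CPM in precursor replicates 1, 2 and 5. Differentiated 2 lay close to precursor 5, and differentiated 1 stood apart. The log2 fold change of 0.73 (SE 0.30) was not called (edgeR adjusted p = 0.204, and 0.109 with the block). It was 0.24 without both replicate 1 libraries. Of the 3 response genes, then, Hr and Thrsp rose and Klf9 was not called.

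**Figure D3:**
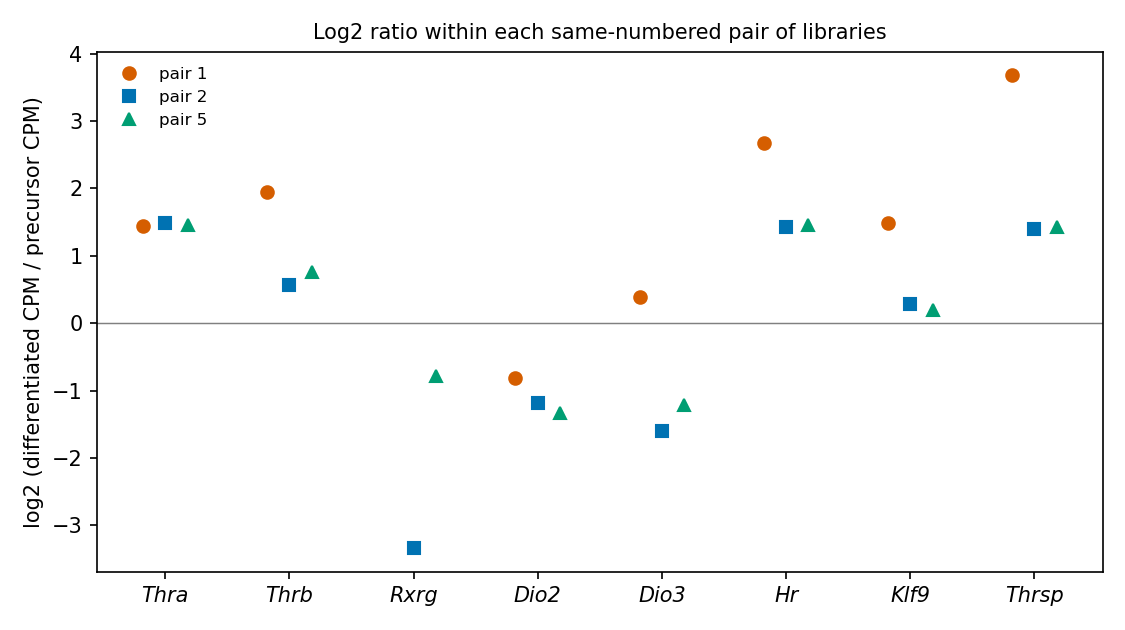
Log2 ratio of differentiated to precursor CPM within each same-numbered pair of libraries. Thra gives nearly the same ratio in all 3 pairs (1.44, 1.48 and 1.46), whereas Thrb, Hr, Klf9 and Thrsp lie highest in pair 1, and Dio3 is above 0 in pair 1 alone. Pair 1 has no point for Rxrg, which had 0 reads in both libraries.

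The pairs thus differed for most of the 8 genes, but hardly for Thra. Pairs 2 and 5 gave log2 ratios of 1.39 to 1.48 for Thra, Hr and Thrsp alike. Pair 1 gave 1.44 for Thra, 2.67 for Hr and 3.68 for Thrsp, and it also gave the highest ratio of the 3 pairs for Thrb (1.95), Klf9 (1.48) and Dio3 (0.39). For Dio2 pair 1 gave -0.81, while pairs 2 and 5 gave -1.18 and -1.34. With 1 library of each kind in a pair, no difference between pairs could be tested.

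By level per length, Thra led the 8 genes in both groups, at 65.2 ± 23.6 TPM in differentiated and 28.6 ± 11.6 TPM in precursor cells (SD, n = 3 each), and no library of any other gene reached its range. In differentiated cells Hr (16.3 TPM), Thrsp (11.3 TPM) and Klf9 (5.27 TPM) followed, Hr and Thrsp overlapping each other and Thrsp and Klf9 likewise. Then came Thrb (1.09 TPM) and Dio3 (0.779 TPM), which overlapped, Dio2 (0.294 TPM) and Rxrg, and Dio2 overlapped neither Dio3 nor Rxrg. In precursors the order was Thra, Hr (5.83 TPM), Klf9 (4.03 TPM), Thrsp (2.82 TPM), Dio3 (1.81 TPM), Dio2 (0.759 TPM), Thrb (0.605 TPM) and Rxrg. From Hr down the range of every gene over the 3 libraries overlapped that of the next. These ranges set TPM of different libraries side by side, where the abundant small RNA gene Rn7sl1 held 24% to 38.7% of all TPM. Within single libraries the precursor order held from Thra to Thrb in all 3, while Rxrg lay above Dio2 and Thrb in precursor 2. The differentiated order held in each library, except that Thrsp lay above Hr in differentiated 1.

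The rest of the pathway was described with 7 lists holding 62 genes, of which 57 were tested, 13 were called higher and 1 lower. Their median log2 fold change was 0.01. With the replicate block 19 were higher and 7 lower, and 7 genes in all were called without precursor 2 and without differentiated 5. Over all genes tested 5.65% were called higher and 3.21% lower, and 14.9% and 15.7% with the block. Of the 13, 12 were response genes of brain or of metabolism. Of these, 5, among them Mbp, Cnp, Mag and Mobp, are also markers of the differentiated cell. The count of 12 is therefore not independent evidence of a hormone response, and whether any of them answered to the hormone was not tested.

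None of the 6 carriers of the hormone or of its amino acid relatives was called by edgeR (1 higher and 1 lower at an unadjusted p under 0.05, and 1 lower by DESeq2). Slco1c1 (84511), a thyroxine carrier of brain vessels and astrocytes, was at 2.64 ± 0.779 and 3.78 ± 0.695 CPM in differentiated and precursor cells (SD, n = 3 each, edgeR adjusted p = 0.362). Slc16a10 (170566), an aromatic amino acid carrier, was at 1.67 and 1.32 CPM in differentiated and precursor cells. The amino acid exchanger genes Slc7a5 (50719) and Slc7a8 (84551) had log2 fold changes of -0.16 and -0.82, and their partner Slc3a2 (50567) 0.36. With the block, 2 carriers were called lower, among them Slc7a8 (edgeR adjusted p = 0.0163), and Slc3a2 was called higher (0.00499). Over all tested genes edgeR called 5.65% higher and 3.21% lower, and 14.9% and 15.7% with the block.

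Among the genes of hormone handling, Crym (117024), whose product binds triiodothyronine in the cytosol, rose: it was at 129, 68.8 and 73.8 CPM in differentiated replicates 1, 2 and 5, against 17.6, 22.9 and 18.8 CPM in precursor replicates 1, 2 and 5. The groups lay far apart, with differentiated 1 highest (log2 fold change 2.19, SE 0.26, edgeR adjusted p = 0.00333). Ttr (24856), the thyroxine carrier protein made by choroid plexus, fell to 185 ± 27.1 CPM in differentiated cells, against 366 ± 85.9 CPM in precursors (SD, n = 3 each, log2 fold change -0.98, SE 0.20, edgeR adjusted p = 0.0257). That call was lost in each fit that left out 1 library except that without precursor 1 (edgeR adjusted p of 0.0627 to 0.103). Markers of ependyma and choroid plexus summed to 204 to 284 CPM in differentiated and 344 to 583 CPM in precursor libraries. Most of that sum was Ttr itself, which is on the list. Of the 6 markers Ttr and Aqp1 were called lower. Kl and Otx2 had log2 fold changes of -0.84 and -1.12, and Foxj1 and Folr1 of 0.28 and 0.21. Foxj1 was higher in each differentiated library than in any precursor library. The part of such cells in the Ttr result was not tested. Secisbp2 (79049), needed to make selenoproteins such as the deiodinases, was at 31.6 and 30.5 CPM in differentiated and precursor cells. Iyd (308129), which recovers iodide, was not tested, with reads in differentiated 1 alone.

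Of 6 corepressor genes, among them Ncor1 and Hdac3, none was called by edgeR (1 higher and 1 lower at an unadjusted p under 0.05, and 0 by DESeq2), and the median log2 fold change was -0.13. Of 9 coactivator genes, among them Ncoa1 and Ep300, none was called either (1 lower at an unadjusted p under 0.05, and 0 by DESeq2), with a median of -0.27. With the block, 2 corepressor genes were higher and 1 lower, and 2 coactivator genes were lower, where 14.9% of all genes were higher and 15.7% lower.

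By edgeR, 5.65% of all tested genes were called higher and 3.21% lower. Of 19 brain response genes tested, 8 rose and 0 fell (edgeR, with 8 higher and 1 lower at an unadjusted p under 0.05, and 8 higher and 0 lower by DESeq2). Apart from the 5 myelin genes these were Enpp2 (84050), the enzyme autotaxin, at 191 ± 26.8 CPM in differentiated and 92.0 ± 24.2 CPM in precursor cells, Aldh1a1 (24188), which makes retinoic acid, at 23.2 ± 7.85 and 8.84 ± 2.60 CPM, and the clock gene Dbp (24309), at 38.8 ± 2.67 and 23.5 ± 3.51 CPM (SD, n = 3 each). Their log2 fold changes were 1.05 (edgeR adjusted p = 0.027), 1.39 (0.0326) and 0.73 (0.0247). Aldh1a1 lost its call in each of the 6 fits that left out 1 library (edgeR adjusted p of 0.0552 to 0.107). Enpp2 kept its call in the fits without differentiated 1 and without precursor 1 and lost it in the others, and Dbp kept its call in those without precursor 1 and without precursor 5. Among the myelin genes Mbp (24547) had a log2 fold change of 4.07 and Mobp (25037) 5.71, and without precursor 1 these were 4.66 and 6.87. Nrgn and Camk4, examples of genes known as targets in neurons, were not called. Nrgn (64356), neurogranin, was at 0.666 and 0.825 CPM in differentiated and precursor cells (edgeR adjusted p = 0.789). Camk4 (25050) was at 0.0847 and 0.466 CPM (edgeR adjusted p = 0.28). It was lower in each differentiated library than in any precursor library, at 0, 7 and 8 reads against 36, 14 and 46. At so few reads a missing call says little.

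Of 11 metabolic response genes tested, 4 rose and 0 fell (edgeR, with 7 higher and 0 lower at an unadjusted p under 0.05, and 5 higher and 0 lower by DESeq2). The edgeR shares over all tested genes were 5.65% higher and 3.21% lower. Me1 (24552), the malic enzyme that supplies NADPH for fatty acid synthesis, was at 226, 112 and 130 CPM in differentiated replicates 1, 2 and 5, against 66.6, 66.2 and 72.1 CPM in precursor replicates 1, 2 and 5 (log2 fold change 1.19, SE 0.26, edgeR adjusted p = 0.0314). As for Thrsp, differentiated 1 stood highest and the groups did not overlap. Srebf1 (78968), the regulator of lipid synthesis genes, had a log2 fold change of 1.15 (SE 0.10, edgeR adjusted p = 0.00107), and the glucose transporter gene Slc2a1 (24778) one of 0.90. Fasn (50671), fatty acid synthase, was at 1309 CPM in differentiated and 660 CPM in precursor cells and missed the threshold (edgeR adjusted p = 0.0864, and 0.000321 with the block). Of these 4 calls, only that of Srebf1 held in each of the 6 fits that left out 1 library.

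**Figure D4:**
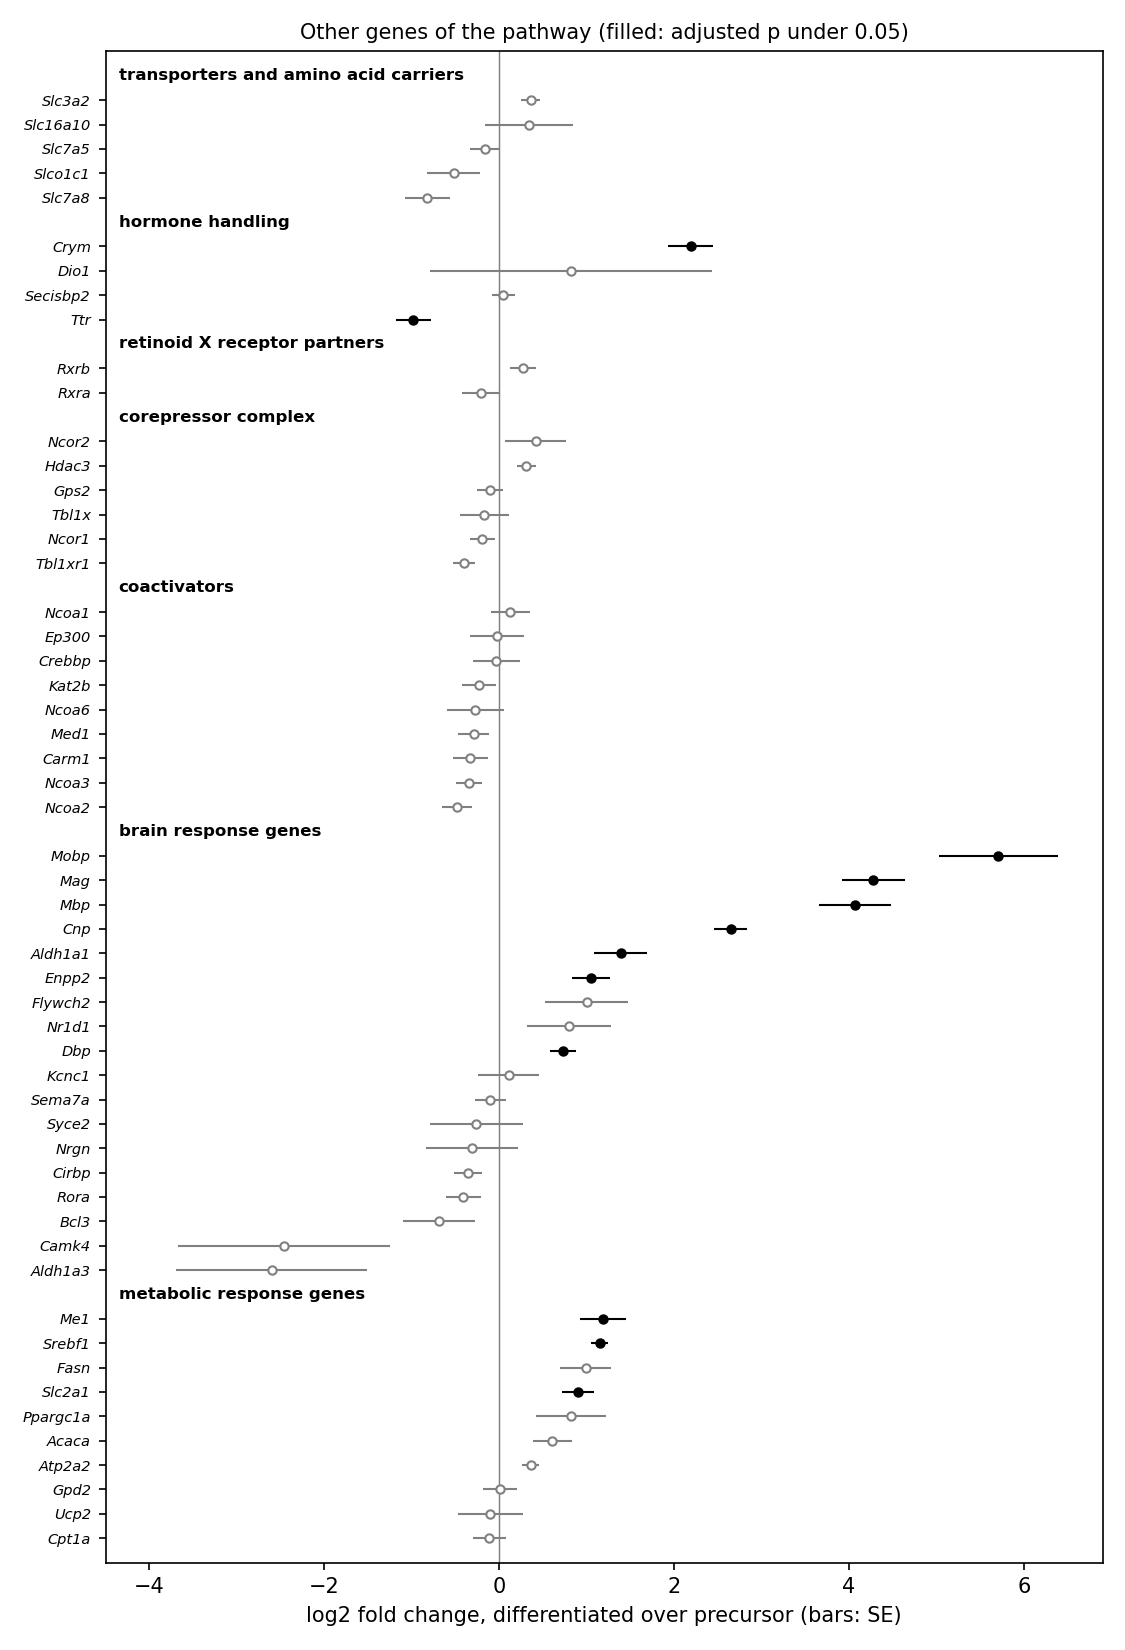
Log2 fold change, differentiated over precursor, with its SE, of 54 other pathway genes tested, grouped by list. Filled points passed an edgeR adjusted p of 0.05; they lie among the response genes (10 genes), with Crym above 0 and Ttr below 0 in hormone handling, and no transporter, retinoid X receptor, corepressor or coactivator gene is filled.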

How the data were processed

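RNA of 3 differentiated and 3 precursor libraries was extracted with ISOGEN and made into libraries with a stranded total RNA kit, per the labels' protocols. The submitters' processing notes name bcl2fastq 2.20.0, Trimmomatic 0.38, HISAT2 2.1.0, StringTie 2.1.3b and the human build GRCh38, whereas the deposited table identifies genes by rat identifiers. Neither the rat build nor the strand setting of the counting is given in the sources used here. The authors deposited whole-number read counts that are not normalized, FPKM values (scaled by length and library size, not used here) and TPM values (scaled to a fixed total per library). All columns belonged to these libraries.

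Counts were tested with edgeR 4.0.16 in R 4.3.3: TMM scaling, filterByExpr, robust quasi-likelihood F test and Benjamini-Hochberg adjustment over 17797 genes, with a call at an adjusted p under 0.05. The SE is the log2 fold change divided by the square root of F. Tried besides were the replicate block, library size alone, RLE scaling, no low-count filter, DESeq2 1.42.0 and limma 3.58.1 on log2(TPM + 1). Each library was also left out in turn, and so were both replicate 1 libraries together. A gene whose adjusted p DESeq2 withheld was counted as not called and kept among the genes it fitted. The fits were tested on simulated data.

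Both groups have replicates 1, 2 and 5 in their titles. The departures of log2 CPM from each group's mean correlated across genes at 0.421, 0.197 and 0.272 in same-numbered libraries, and at 0.105 or less in others. The numbers were therefore taken to pair the libraries, which the labels do not state.

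The genes, lists and tests were chosen with earlier results of these data known. Named are the 8 genes, every called gene of the 7 pathway lists, all carrier, hormone handling and retinoid X receptor genes, genes that overlap Thra, markers, and for each called gene of the 8 the 3 protein-coding genes with the closest profile. Med24, Fasn, Nrgn, Camk4 and the corepressor and coactivator examples were named after their values were seen. Of the listed genes 3 are counted but not reported here by name. Names of 29216 identifiers matched the GRCr8 table. Only windows of 300 bases were searched for motifs.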

Additional observations from a re-analysis of the deposited data

How the results depend on the processing

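No gene of the 8 changed the sign of its log2 fold change in any of 13 other fits. Members called numbered 3, and 5 with the replicate block, with DESeq2 or without both replicate 1 libraries, and 0 to 4 when 1 library was left out. Of 17797 genes 1576 were called, but 5440 with the replicate block. DESeq2 called 2657 of the 25386 genes it fitted, and 2991 of 18036 were called without both replicate 1 libraries. With 1 library left out 632 to 1482 were called, of 18333 to 18413 tested. Pathway genes called numbered 14, but 26 with the replicate block, 9 by limma on log2(TPM + 1), and 7 to 12 with 1 library left out. The difference in the log2 ratio of Thrb to Thra ran from -0.883 to 0.072 with 1 library left out.

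The split of calls over all genes was 1005 higher and 571 lower. It was 678 and 1006 with library size alone and 965 and 596 with RLE scaling, which change the scaling only. It was 2643 and 2797 with the block, and 487 and 1000 by limma, which also changes the measure and the test. Over all genes the median log2 fold change was -0.188 with library size alone and -0.0376 with TMM. Thra lost its call by limma on log2(TPM + 1) (adjusted p = 0.0841). For the 14 called pathway genes, 41 of 182 alternative fits lost the call and 0 changed its sign. The block changed no other call among the 8 genes than those of Thrb and Dio2. At 0 to 112 reads a library, Rxrg had the largest SE of the 8 genes, 1.74.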
